A study of Homo sapiens with 151 samples.

Results

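The 10 genes described here encode cytochrome P450 enzymes of the liver and proteins that make, sense and export bile acids: CYP1A1, CYP2E1, CYP3A4, CYP7A1, CYP8B1, CYP27A1, CYP24A1, NR0B2, ABCB11 and NR1H4. They were chosen by symbol for their roles, and all 10 were found among the 20033 protein-coding genes of GENCODE 44. For each gene, the peak lists were counted that had a peak overlapping 500 bp on either side of any annotated transcription start site (TSS), and those that had a peak in the gene body and 20 kb on either side, called the locus. The data were ChIP-seq peak lists of DNA-associated proteins (DAPs) in HepG2, a hepatocellular carcinoma cell line, in which each DAP carried a FLAG tag at its own gene and was precipitated with 1 anti-FLAG antibody. Of 151 samples, 24 were input libraries without antibody, and the others gave 1 peak list per DAP. The authors marked a preferred list for each DAP, which left 6 lists as non-preferred, and the counts below use the preferred lists alone. HepG2 cells had no treatment or genotype in the labels other than the tag, and all lists share the cell line, which is a tumor line and not normal liver.

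Cytochrome P450 enzymes oxidize small molecules. CYP7A1 starts the classical route from cholesterol to bile acids, CYP8B1 adds the hydroxyl group that makes cholic acid, and CYP27A1 opens the alternative route in mitochondria. Bile acids activate the nuclear receptor FXR, encoded by NR1H4, which raises the repressor SHP, encoded by NR0B2, and the canalicular pump BSEP, encoded by ABCB11, and SHP in turn lowers CYP7A1.

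The genes spanned a wide range, from 0 lists at a TSS to most of the preferred lists. At a TSS, 8 of 10 genes had a peak of at least 1 preferred list, against 72.9% of all coding genes. Only CYP27A1 and NR0B2 reached 25% of the preferred lists, which is 31 lists and is called highly bound here, against 42.1% of coding genes. In the locus, 10 of 10 genes had a peak of at least 1 list, against 90.4% of coding genes, and 6 of 10 reached 31 lists, against 64.1%. The median was 20.5 lists at a TSS and 45 in the locus, and over all coding genes it was 22 and 49. Each DAP has 1 list without replicates, so a count of lists has no replicate error. The intervals given below are 95% Wilson intervals of a share of lists and cover counting error only.

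**Figure D1:**
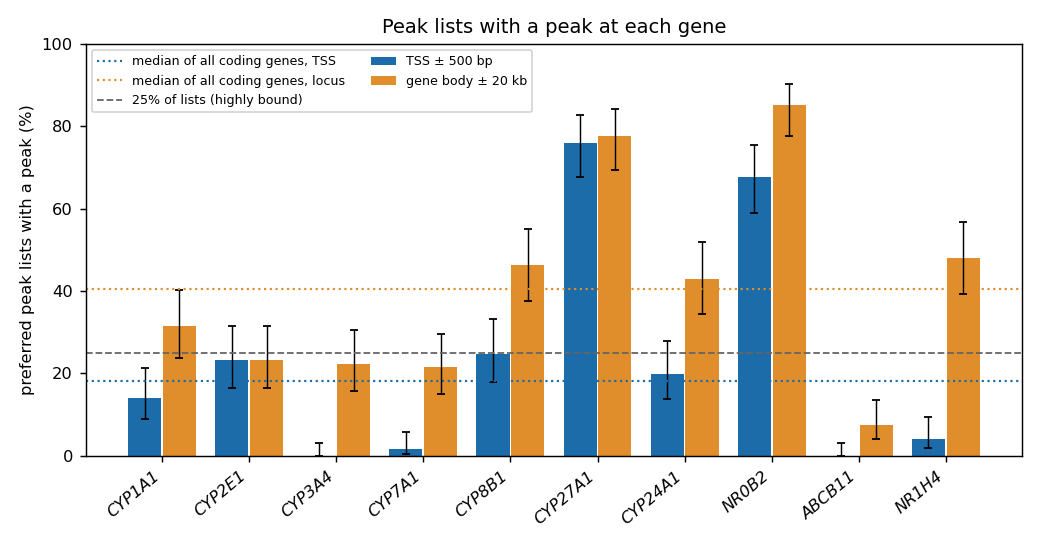
Percent of preferred peak lists (vertical axis) with a peak at a TSS (blue) and in the gene body and 20 kb on either side (orange) of each gene, with 95% Wilson intervals as bars; dotted lines give the medians over all coding genes and the dashed line 25% of lists. CYP27A1 and NR0B2 stand at 76% and 67.8% at a TSS, while CYP3A4 and ABCB11 stand at 0.

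The lists themselves set limits on these counts. They held 195 to 61748 peaks with a median of 8680, so a DAP with a long list had more chances to reach a gene. Read depth is unknown, since the files hold peaks and no reads. Of genes that mark hepatocytes, ALB, APOA1, APOB, TTR, SERPINA1, TF, FGB and HNF4A all had at least 1 list at a TSS, 5 of 8 reached 31 lists, and FGB, a fibrinogen chain, had 1 list. Among 8 genes that mark other tissues, 5 had a list at a TSS and 2 reached 31 lists. A peak at a TSS is therefore not read here as expression of a gene.

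Peaks of these 10 loci gathered in a few regions. Merging the central 100 bp of all preferred peaks gave 147 regions in the loci, of 212005 in the genome. Of these, 78 came from 1 list alone. Highly bound regions numbered 7 of the 147, or 4.76%, against 4.95% genome-wide. NR0B2 held 4 of these regions, CYP27A1, CYP24A1 and NR1H4 held 1 each, and the loci of CYP1A1, CYP2E1, CYP3A4, CYP7A1, CYP8B1 and ABCB11 held none. Per 10 kb, the NR0B2 locus had 88 peaks and that of ABCB11 0.578.

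CYP1A1, which oxidizes polycyclic aromatic compounds and is induced through the aryl hydrocarbon receptor, lies at chr15:74719542-74725536 on the minus strand. It had 17 lists at a TSS (14% of lists, interval 8.96% to 21.4%) and 38 lists in the locus (31.4%, interval 23.8% to 40.1%). The TSS peaks sat upstream, with summits from -823 to -351 bp and a median of -655.5 bp. A narrower window of 250 bp therefore held 2.48% of lists and a wider one of 1000 bp 21.5%. The 8 lists with the strongest TSS peak, ranked by signal within their own list, were SMAD7, ZNF816, ZBTB12, ZNF827, GLYR1, E4F1, E2F8 and SALL1. The SMAD7 peak was stronger than 85.1% of the peaks of its list. Away from the TSS the strongest peak was that of ZFP91, at -1097 bp, above 99.4% of its list.

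A pair of regions of CYP1A1 drew 24 lists each: chr15:74725988-74726684, centered at -808 bp from the canonical TSS, and chr15:74730901-74731320, centered at -5583 bp. Both were intergenic. The near region carried all 8 of the DAPs with the strongest TSS peaks, and the far one held SALL1, ZBTB12, E2F8 and ZNF816 of them. The central 300 bases of the near region, chr15:74726186-74726485 on the plus strand of hg38, are shown because more lists met there than at the TSS. Capitals mark, in order, TNGCGTG, the core to which the aryl hydrocarbon receptor and ARNT bind, and a direct repeat of AGGTCA with 1 base between the copies and 2 mismatches. TNGCGTG was present in 5.28% of all 211994 region windows of this length, and the direct repeat in 5.00%.
CYP1A1 upstream region: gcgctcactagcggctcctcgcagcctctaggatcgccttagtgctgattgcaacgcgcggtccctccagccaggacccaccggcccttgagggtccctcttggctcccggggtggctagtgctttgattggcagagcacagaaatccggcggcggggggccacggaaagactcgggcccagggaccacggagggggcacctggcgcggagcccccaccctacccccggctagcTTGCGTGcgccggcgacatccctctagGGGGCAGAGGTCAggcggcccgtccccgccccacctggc

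CYP2E1, which oxidizes ethanol and small solvents, lies at chr10:133520406-133561220 on the plus strand. It had 28 lists at a TSS (23.1%, interval 16.5% to 31.4%), and the same number in the locus. All 28 lay at an alternative first exon that starts at -6957 bp from the canonical TSS, and the canonical TSS had 0 lists. The summits ran from -7056 to -6591 bp, and 1 region, chr10:133520257-133520715 in the untranslated first exon, held all 28 lists. The strongest peaks there were those of ZMYM4, ZNF529, MGA, SALL1, ZNF45, ZBTB12, E2F8 and ZFP91. The ZMYM4 peak was above 91.5% of its list. The bases before the canonical TSS, chr10:133527113-133527356, are shown from RefSeq because no list reached them. Capitals mark an inverted repeat of GTTAAT with 1 base between the copies and 2 mismatches, the form of site that HNF1 proteins bind, and TATAAA. The repeat was found in 1.31% of 35114 RefSeq promoters and TATAAA in 11.5%.
CYP2E1 promoter: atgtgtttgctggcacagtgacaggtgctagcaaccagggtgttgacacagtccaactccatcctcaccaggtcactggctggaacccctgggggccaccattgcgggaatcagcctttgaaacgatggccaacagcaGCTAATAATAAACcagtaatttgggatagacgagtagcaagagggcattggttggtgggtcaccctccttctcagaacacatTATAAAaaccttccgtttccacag

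CYP3A4, which oxidizes a large share of drugs and also hydroxylates bile acids, lies at chr7:99756960-99784248 on the minus strand. It had 0 lists at a TSS, and the Wilson interval reached 3.08% of lists. The locus had 27 lists (22.3%, interval 15.8% to 30.5%) with 54 peaks, none of which had its summit within 1000 bp of the canonical TSS. Upstream, 15 lists met at chr7:99794852-99795258, centered at -10871 bp. Downstream, 16 lists met at chr7:99742731-99742992, centered 41322 bp past the TSS and beyond the end of the gene. Both regions were intergenic, and whether they act on CYP3A4 or on another gene was not tested. With a flank of 10 kb in place of 20 kb, 5.79% of lists were left. The strongest peaks in the locus were those of ZBTB12, NCOA2, SALL1, MGA, ZMYM4, ZNF219, ZMYM2 and MED12. The ZBTB12 peak, at -11047 bp, was above 96.2% of its list, and the NCOA2 peak, at 41341 bp, was above 94.1%. NCOA2 is a coactivator that nuclear receptors recruit, and MED12 is a Mediator subunit.

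Both stretches of CYP3A4 are shown so that the bound region and the unbound promoter can be set side by side. In the bound downstream region, chr7:99742712-99743011 on the plus strand, capitals mark TGANTCA, the AP-1 site, then direct repeats of AGGTCA with 4 and with 3 bases between the copies, each with 2 mismatches. FOSL1, an AP-1 subunit, was among the 16 lists of this region. TGANTCA was in 9.78% of region windows, the repeat of spacing 4 in 5.89% and that of spacing 3 in 3.63%. In the promoter, chr7:99784249-99784434 on the minus strand and read 5′ to 3′, capitals mark a direct repeat of spacing 4 with 2 mismatches, which 2.34% of promoters held. The promoter also held TGANTCA, from -6, and TATAAA, from -29, so the AP-1 letters were in both the bound region and the unbound promoter. Both lie outside the stretch printed, which ends before any transcribed base.
CYP3A4 downstream region: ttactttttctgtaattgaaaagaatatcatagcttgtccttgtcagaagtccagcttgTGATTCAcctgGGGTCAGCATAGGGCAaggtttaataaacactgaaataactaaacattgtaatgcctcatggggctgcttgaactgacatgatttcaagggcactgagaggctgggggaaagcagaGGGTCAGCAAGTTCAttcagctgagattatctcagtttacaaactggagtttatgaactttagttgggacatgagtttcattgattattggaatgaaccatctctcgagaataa
CYP3A4 promoter: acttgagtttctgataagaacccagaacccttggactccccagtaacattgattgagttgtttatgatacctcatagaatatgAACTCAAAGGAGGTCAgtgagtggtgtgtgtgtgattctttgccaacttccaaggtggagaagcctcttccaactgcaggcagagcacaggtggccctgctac

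CYP7A1, the rate-limiting enzyme of classical bile acid synthesis, lies at chr8:58490178-58500163 on the minus strand. It had 2 lists at a TSS (1.65%, interval 0.454% to 5.83%), NCOA2 and ZMYM4. The NCOA2 peak, with its summit at -143 bp, was above 85% of its list, and the ZMYM4 peak, at -130 bp, was above 14.8%. The locus had 26 lists (21.5%, interval 15.1% to 29.6%), of which 25 had a peak in the 20 kb past the gene's end. There 17 lists met in 1 region centered 28850 bp past the TSS and 13 in another centered 22109 bp past it. The region of 17 lists was bound by NCOA1, NCOA2 and TRIM24 together, with AFF1, E2F8, HES6, MEIS1, MEIS2, MGA, PEG3, SALL1, ZFHX3, ZMYM2, ZMYM4, ZNF160, ZNF219 and ZNF816. TRIM24, which also interacts with nuclear receptors, had 4673 peaks in all, and its peak there was above 83.8% of them. With a flank of 10 kb, 3.31% of lists were left in the locus.

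CYP8B1, the sterol 12-alpha-hydroxylase, lies at chr3:42856005-42875898 on the minus strand, within introns of ACKR2. It had 30 lists at a TSS (24.8%, interval 18% to 33.2%), just under the 31 lists that make a highly bound site, and with 1000 bp on either side of the TSS, with the lists under 1000 peaks left out, or with all lists counted, 3 genes instead of 2 were highly bound. The strongest TSS peaks were those of SALL1, ZBTB12, ZNF219, MED12, POU2F1, MGA, HSF4 and ZNF160, with summits from -76 to 11 bp. The SALL1 peak was above 98.3% of its list and the ZBTB12 peak above 97.1%. In the locus 56 lists had a peak (46.3%, interval 37.6% to 55.1%). The start of ACKR2 near the 3′ end of CYP8B1 held 30 lists at chr3:42855373-42856352, the start of CYP8B1 29 lists at chr3:42875634-42876017, and an ACKR2 intron without a TSS 23 lists at chr3:42853844-42854084. After removal of peaks that overlapped only the start of another coding or long noncoding RNA gene, 52 of the 56 lists were left. NCOA2 had its strongest peak of this locus in that intron, at 21937 bp past the TSS, above 98.2% of its list.

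CYP27A1, the mitochondrial sterol 27-hydroxylase, lies at chr2:218781749-218815293 on the plus strand and had the most lists at a TSS of the 10 genes, 92 (76%, interval 67.7% to 82.8%). Fewer lists were counted at 98.1% of coding genes. The locus had 94 lists, so that peaks away from a TSS added 2. The canonical TSS held 88 lists, and a later alternative start, 23767 bp into the gene, held 19. The strongest peaks were those of ZNF219, PAX8, ZNF704, SALL2, ZNF558, ZNF747, ZNF816 and ZNF875, which the labels call HKR1. The ZNF219 peak ranked 83 by signal in its list, the PAX8 peak 78 and the ZNF704 peak 119. The median TSS peak of CYP27A1 was above 71.8% of the peaks of its own list. The 250 bases before the TSS, chr2:218781897-218782146 from RefSeq, are shown because 88 lists met in the region chr2:218781639-218782701 around them. None of the 12 motifs searched was found in them, so they hold no capitals.
CYP27A1 promoter: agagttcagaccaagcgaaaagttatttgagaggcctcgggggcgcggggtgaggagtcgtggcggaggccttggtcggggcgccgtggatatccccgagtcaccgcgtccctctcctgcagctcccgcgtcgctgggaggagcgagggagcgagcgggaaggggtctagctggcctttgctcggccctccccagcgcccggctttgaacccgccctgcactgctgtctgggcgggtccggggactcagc

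CYP24A1, the enzyme that inactivates vitamin D, lies at chr20:54153446-54173986 on the minus strand. It had 24 lists at a TSS (19.8%, interval 13.7% to 27.8%). The strongest were ZSCAN12, PHTF1, ZNF251, ZNF546, ELK3, MGA, ZNF544 and ZNF529, and the ZSCAN12 peak, at -343 bp, was above 94.8% of its list. These peaks ranked lower within their lists than those of CYP27A1, the median one above 36.1% of its list. The locus had 52 lists (43%, interval 34.5% to 51.9%), and 39 had a peak in the 20 kb past the gene's end. The only highly bound region of the locus was intergenic and lay at its very edge, chr20:54132786-54133828, with 50 lists and no TSS within 500 bp. The 20 kb limit cuts this region: 40 of its 50 lists had a peak in the locus as counted and 10 did not. Counting the whole region would bring the locus to 62 lists, or 51.2%. With a flank of 10 kb the share was 24.8% and with 50 kb it was 87.6%, which includes sites farther out that are not described here. Of the peaks in the highly bound region that reached the locus, that of MEIS2 was the strongest within its list. Its summit was 40482 bp past the TSS, and it was above 97.2% of its list. The central 300 bases of the region, chr20:54133157-54133456 on the plus strand, are shown because no other region of the locus was highly bound. These bases lie mostly beyond the 20 kb limit and do not include the MEIS2 summit. None of the motifs searched was found in them.
CYP24A1 downstream region: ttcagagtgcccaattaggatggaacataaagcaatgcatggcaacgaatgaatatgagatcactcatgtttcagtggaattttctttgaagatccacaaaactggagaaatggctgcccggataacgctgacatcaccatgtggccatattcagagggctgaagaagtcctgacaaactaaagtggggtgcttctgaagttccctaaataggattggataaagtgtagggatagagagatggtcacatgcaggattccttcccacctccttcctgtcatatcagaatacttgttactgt

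NR1H4, which encodes the bile acid receptor FXR, lies at chr12:100473708-100564414 on the plus strand. It had 5 lists at a TSS (4.13%, interval 1.78% to 9.31%): NCOA2, SALL1, ZBTB12, ZMYM4 and ZNF875. Their peaks ranked low or midway within their lists, the NCOA2 peak above 21.3% of its list and the SALL1 peak above 50.6%. The locus had 58 lists (47.9%, interval 39.2% to 56.8%), but 46 lists met at chr12:100573248-100574065, the start of the next gene, GAS2L3. Without peaks that overlapped only the start of another coding or long noncoding RNA gene, 23 lists were left, or 19%. Within the gene, 15 lists met in an intron at chr12:100475293-100475652, centered 1607 bp past the canonical TSS. There the KAT6A peak was above 96.1% of its list, the MED12 peak above 95.3% and the NCOA2 peak above 95.2%. KAT6A is a histone acetyltransferase.

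NR0B2, which encodes the repressor SHP, lies at chr1:26911489-26913975 on the minus strand, within an intron of a NUDC transcript. It had 82 lists at its single TSS (67.8%, interval 59% to 75.4%), more than 95.7% of coding genes. In the locus 85.1% of lists had a peak, the largest share of the 10 genes. Summits of the TSS peaks ran from -603 to 499 bp around a median of -187.5 bp. AFF1, a subunit of the super elongation complex, ranked 26 here in its own list, and HIC2 ranked 25. PEG3 ranked 73, MED12 215, ZNF275 260, NCOA2 438, ZNF746 488 and ZBTB12 809. The median TSS peak of NR0B2 was above 75.2% of its own list, the highest median among the 10 genes.

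Of the 22 regions in the NR0B2 locus, 4 were highly bound and 9 came from 1 list alone. The gene's own start, chr1:26913426-26914627, held 82 lists. The start of NUDC, chr1:26921713-26922397, held 61, and a region over GPATCH3, chr1:26900201-26900652, held 32. A region with no TSS, chr1:26910318-26911080, centered 3276 bp past the start of NR0B2, held 36. Without peaks that overlapped only the start of another coding or long noncoding RNA gene, NUDC and GPATCH3 among them, 91 lists were left, or 75.2%.

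ABCB11, which encodes the bile salt export pump, lies at chr2:168915498-169031324 on the minus strand. It had 0 lists at any of its 6 annotated TSSs, and its locus, the longest of the 10 at 155827 bp, had 9 peaks of 9 lists (7.44%, interval 3.96% to 13.5%). These were FOSL1, MEIS2, MGA, NCOA2, POU2F1, SALL1, ZMYM4, ZNF430 and ZNF865. Of them, 7 met in 1 intronic region. The FOSL1 peak was above 89.6% of its list, that of ZNF430 above 64.6%, that of POU2F1 above 52.7% and that of NCOA2 above 40.7%. The remaining peaks were those of ZMYM4, 69490 bp past the TSS, and ZNF865, 117735 bp past it and at the start of SPC25. With 50 kb on either side of the gene, 32.2% of lists had a peak.

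The promoter of ABCB11, chr2:169031325-169031574 on the minus strand and read 5′ to 3′, is shown because no list reached it. Capitals mark TGANTCA, the AP-1 site, and, nearer the TSS, an inverted repeat of AGGTCA with 1 base between the copies and 2 mismatches. A repeat of this kind is the form of site that FXR binds with RXR, and a match was in 1.12% of RefSeq promoters. Whether FXR binds the marked bases was not tested, and a site with more than 2 mismatches would stay unmarked. TGANTCA was in 7.71% of promoters.
ABCB11 promoter: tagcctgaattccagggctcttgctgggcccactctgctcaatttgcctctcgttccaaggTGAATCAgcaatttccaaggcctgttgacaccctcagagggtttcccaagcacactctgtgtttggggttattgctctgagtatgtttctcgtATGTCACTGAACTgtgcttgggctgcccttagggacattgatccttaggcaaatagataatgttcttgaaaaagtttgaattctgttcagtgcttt

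The motif search covered 6 of the 10 promoters, 250 bases before to 50 after the RefSeq start; CYP7A1, CYP8B1, CYP24A1 and NR0B2 had none in the RefSeq table. For NR1H4 the RefSeq start lay 29494 bp past the canonical TSS. On both strands the search took direct repeats of AGGTCA with 1, 3 or 4 bases between the copies and its inverted repeat with 1 base, GTTAAT as an inverted repeat with 1 base, each with up to 2 mismatches, TTGGC as an inverted repeat with 5 bases and up to 1 mismatch, TCA joined to AGGTCA, and without mismatches the aryl hydrocarbon receptor core TNGCGTG, the forkhead motif TGTTTAC, the AP-1 site TGANTCA, the E-box CACGTG and the TATA box TATAAA. Among these promoters, 3 held TATAAA, 2 TGANTCA, 2 the repeat of GTTAAT, 1 the direct repeat of spacing 4 and 1 the inverted repeat of AGGTCA. A match is a description of the letters, and these searches say nothing about which protein was there.

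Over the 10 genes, the lists differed widely in how many loci they reached. Peaks in all 10 loci were found for ZMYM4, SALL1, MGA and POU2F1, lists that also reached 77.5%, 82.8%, 76.1% and 77.3% of coding loci. ZBTB12 reached 9 loci against 81.3% of coding loci, ZNF430 9 against 64.9%, NCOA2 9 against 64.8%, ZNF747 9 against 56.9% and ZMYM2 9 against 51.7%. ZNF219 reached 8 against 53.4%. At the other end, 9 preferred lists had no peak in any of the loci and 12 had none at any TSS of the 10 genes. The widely bound lists were mostly long: ZMYM4 had 44170 peaks, SALL1 61748, MGA 45456 and POU2F1 42562. ZMYM4 had a peak at a TSS of 8 of the 10 genes against 54.2% of coding genes. PEG3 had 8360 peaks, fewer than the median list, and reached 8 of the 10 loci against 34.2% of coding loci. Its excess of 45.8 percentage points was the largest among the preferred lists, as a description without a test.

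**Figure D2:**
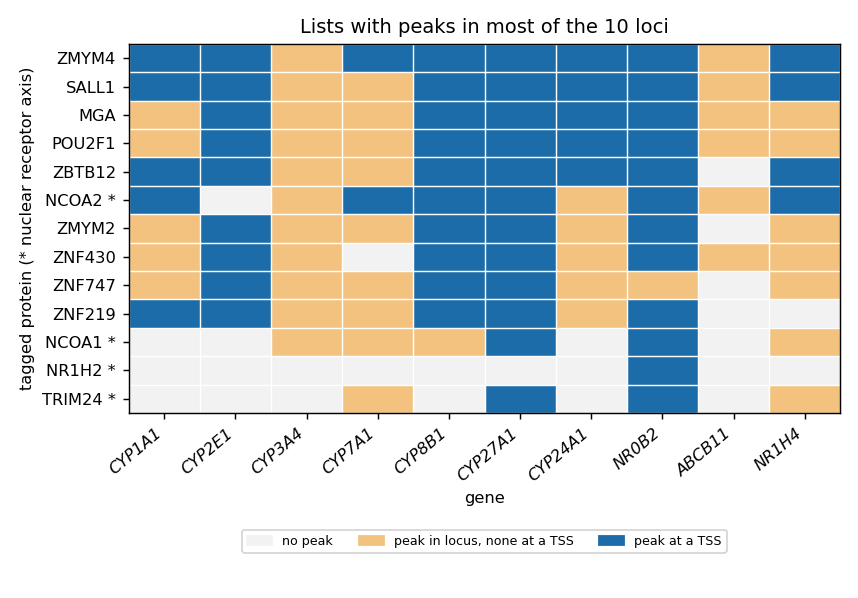
Genes (columns) with a peak at a TSS (blue), a peak in the locus but none at a TSS (orange) or no peak (gray) for the 10 preferred lists with peaks in most loci and the nuclear receptor axis lists (rows, starred). CYP27A1 was bound at a TSS by every list shown but NR1H2, and ABCB11 at a TSS by none.

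Genes with many lists share many in any case, so each overlap is given beside the share of all preferred lists that the other gene held. CYP27A1 and NR0B2 had 69 TSS lists in common, which was 75% of the lists of CYP27A1 and 84.1% of those of NR0B2, where NR0B2 held 67.8% and CYP27A1 76% of all preferred lists. Of the 30 TSS lists of CYP8B1, 27 (90%) were also at the TSS of NR0B2 and 29 (96.7%) at that of CYP27A1. CYP7A1 and CYP3A4, neither of which had more than 2 TSS lists, had 17 lists in common in their loci. These were 65.4% of those of CYP7A1 and 63% of those of CYP3A4, where CYP3A4 held 22.3% and CYP7A1 21.5% of all preferred lists. CYP3A4 also shared 92.6% of its locus lists with CYP8B1, and CYP7A1 92.3% with NR1H4, which held 46.3% and 47.9%. Such shares take no account of list length or of peaks at neighboring genes. At NR1H4, 46 lists met at the start of GAS2L3. Without peaks that overlapped only another gene's start, NR1H4 kept 23 lists, or 19% of all preferred lists. Among all coding genes with a TSS over 100 kb away, the TSS lists most like those of CYP27A1 by the Jaccard index, the shared lists over all lists of either gene, were those of NFE2L2, at 0.833, followed by SPAG4. For NR0B2 they were ANXA4, at 0.773, and CENPT, at 0.735. The values were lower for CYP8B1 (LONRF3 at 0.588 and NEU3 at 0.564), CYP2E1 (BLVRA and SH3BGRL2, both at 0.50), CYP24A1 (BTBD7 and UNC79, both at 0.447) and CYP1A1 (NRAS at 0.419 and INTU at 0.407).

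Nuclear receptors regulate most of these genes, and 4 preferred lists belong to that axis: the oxysterol receptor NR1H2, the coactivators NCOA1 and NCOA2, and TRIM24. Each was compared with all coding genes, as the percent of the 10 genes with a peak less the percent of coding genes. NCOA2 was at a TSS of 60% of the 10 genes against 33.1% of coding genes, a difference of 26.9 points that none of the other preferred lists exceeded. TRIM24 was at 20% against 3.51%, NCOA1 at 20% against 22.7% and NR1H2 at 10% against 16.2%. In the loci, NCOA2 reached 90% against 64.8%, NCOA1 60% against 42.6% and TRIM24 40% against 18.4%. NR1H2 reached 10% against 30.8%, its single gene being NR0B2.

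The difference between these lists as a group and the other preferred lists did not pass the test. The lists belong to different proteins and are not replicates, so the spread is that among proteins. They were chosen with earlier results of these data known, so the p-values below are a description and do not measure chance alone. At a TSS the mean difference from coding genes was 8.61 points (SD 15.7, n = 4 lists) for the nuclear receptor axis and 0.213 points (SD 9.93) for the others, and an exact two-sided permutation test over all splits of the lists gave p = 0.105, adjusted p = 0.211 over both windows. In the locus the means were 10.8 points (SD 21.3, n = 4 lists) and 1.69 points (SD 14.1), with p = 0.214 in the exact permutation test and the same adjusted p. NCOA2, NCOA1 and TRIM24 lay on one side in the locus and NR1H2 on the other. Without NR1H2 the gap between the groups was 13.3 points at a TSS (exact permutation p = 0.0256) and 19.7 in the locus (p = 0.0164). Without NCOA1 it was 12.2 points at a TSS (exact permutation p = 0.0420), without NCOA2 2.31 (p = 0.693) and without TRIM24 5.77 (p = 0.329). In the locus it was 6.96 points without NCOA1 (exact permutation p = 0.415), 4.36 without NCOA2 (p = 0.608) and 5.55 without TRIM24 (p = 0.515). With peaks of an authors' score of 830 or more alone, the gap was 15 points at a TSS, with an exact permutation p of 0.000475. The p-values of the alternatives are unadjusted, and this was the smallest among 14 alternatives per window. Lists that share an input library with NCOA1, NCOA2 or TRIM24 gave gaps of 9.53 points at a TSS and 12.5 points in the locus within libraries, with exact permutation p = 0.188 and p = 0.149. NR1H2 shared its input with no other preferred list.

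**Figure D3:**
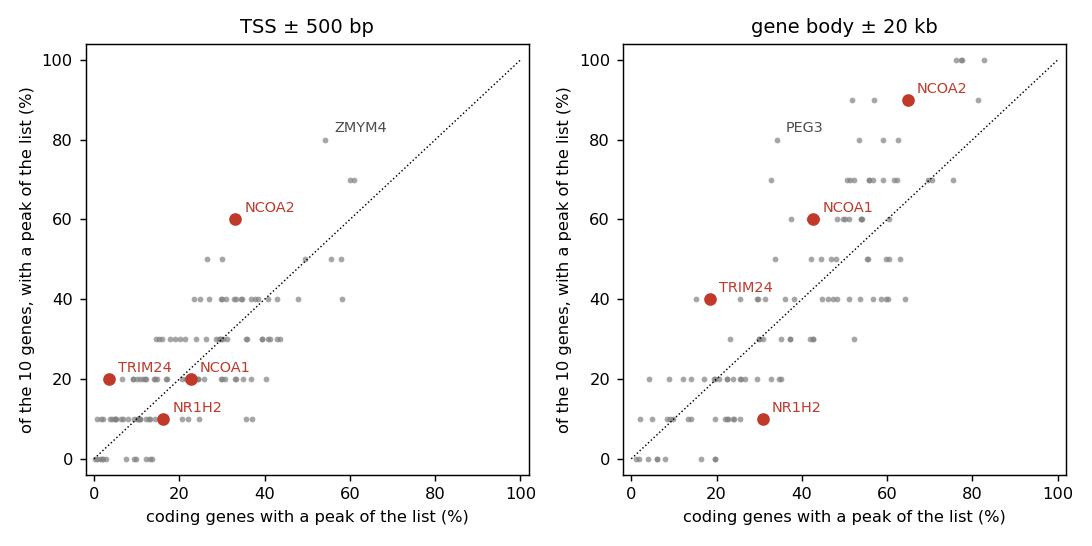
Percent of the 10 genes with a peak of a list (vertical axis) against percent of all coding genes (horizontal axis), 1 point per preferred list, at a TSS (left) and in the locus (right), with the nuclear receptor axis in red and equality as the dotted line. NCOA2 lies above the line in both panels, TRIM24 as well, and NR1H2 below it in both.

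Other genes of the same pathways also ranged from 0 lists to most of them. The counts below stand beside 72.9% of all coding genes with a list at a TSS and 42.1% with 31 lists. Of 16 further P450 genes and their reductase, 9 had a list at a TSS and 2 reached 31 lists: POR, the reductase that feeds electrons to microsomal P450 enzymes, with 87 lists, and CYP51A1, of cholesterol synthesis, with 66. Next came CYP27B1, which activates vitamin D, with 28. CYP2C8 and CYP2C19, drug-metabolizing enzymes, had 0 at a TSS, as CYP3A4 did. All 11 further genes of bile acid synthesis had a list at a TSS and 7 reached 31 lists, led by HSD3B7 with 63, AMACR with 62 and SLC27A5 with 62, with AKR1C4 at 3, BAAT at 8 and CYP7B1 at 14. Among 8 bile acid transporters, 6 had a list and 3 reached 31: ABCC3 with 74, SLC51A with 37 and SLC51B with 36. SLCO1B1 and SLCO1B3, the uptake carriers, had 0 like ABCB11, and SLC10A1 had 1. Of 13 receptors and regulators, 12 had a list and 6 reached 31, led by HNF4A and then by FGFR4 and NR1H3 at 72 each. VDR had 2 lists, NR1I2 had 3, and FGF19, the intestinal hormone that represses CYP7A1, had 0.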

How the data were processed

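ChIP-seq of FLAG-tagged DAPs in HepG2 gave 127 peak lists, 121 of them preferred (106 TFs and 15 other DAPs), 1 per DAP; the 24 input libraries served only to say which lists share a control. The authors called optimal peaks on hg38 with ENCODE's ChIP-seq pipeline; for the aligner and caller, versions and names are not given in the sources read. The deposited score runs from 540 to 1000. The deposited signal is not scaled between lists, so it only ranked peaks within a list. The deposited column 9 was treated as a score and not used, and the deposited column 10 gives the summit, in another unit (bp from the peak's start). Depth is unknown. Peaks on 24 chromosomes fitted the reference.

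Overlaps were computed in Python 3.11.15 (numpy 2.4.6, scipy 1.17.1, matplotlib 3.10.9) with any overlap of at least 1 bp, against GENCODE 44. Promoter sequences came from RefSeq (GRCh38.p14). The 4 nuclear receptor axis lists were compared with the 117 other preferred lists by an exact permutation test over 8495410 splits, with Benjamini-Hochberg adjustment. The calculations were tested on simulated data. Genes, gene lists and the axis group were chosen with earlier results of these data known. Every gene is named; its lists are all named up to 15, otherwise the 8 of highest signal rank, and further pathway genes are the 3 with most and fewest lists. FOSL1 at CYP3A4, and CYP2C8 and CYP2C19 of the P450 genes at 0, were named after their values were seen. Alternatives changed windows, peak thresholds, lists, inputs, measure and background. The sequence of 1 region and the values of 1 further gene are not reported here.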

Additional observations from a re-analysis of the deposited data

Results flagged for a closer look

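Among the 4 nuclear receptor axis lists, NR1H2 stood apart in the locus. Its difference from coding genes was -20.8 percentage points, and its gap to the next list was 0.830 of the group's range, just past Dixon's 95% critical value for 4 values. About 1 in 20 such groups would pass by chance. The cause was not tested.

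The 6 non-preferred lists entered none of the comparisons. EP300, a histone acetyltransferase, had peaks in 8 of the 10 loci, all but those of CYP2E1 and CYP3A4, and at a TSS of 4 genes, CYP8B1, CYP27A1, CYP24A1 and NR0B2, against 49% and 20.8% of coding genes. ZNF431 had peaks in 6 loci against 53.3% of coding genes, TSC22D2 in 5 against 48.3%, TUT4, which the labels call ZCCHC11, in 5 against 35%, and ZZZ3 in 3 against 46.4%. GPBP1L1, with 73 peaks, had none. Input libraries have no peak lists here, so no control list could be set beside these lists.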

How the results depend on the processing

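The gap between the nuclear receptor axis and the other preferred lists kept its direction under each of 14 alternatives per window. In 11 of the 14 per window the exact permutation p stayed above 0.05. Keeping peaks scored 830 or more gave 15 points at a TSS (exact permutation p = 0.000475) and 14.3 points in the locus (p = 0.0211), and with the 5000 strongest peaks of each list it was 14.8 points in the locus (p = 0.0175). Leaving out 1 list in turn gave 2.31 to 13.3 points at a TSS and 4.36 to 19.7 in the locus. These p-values are unadjusted, the lists were chosen with earlier results of these data known, and the cause of these shifts was not tested. The number of highly bound genes in the locus fell from 6 to 3 with the gene body alone, a smaller window, and to 3 with the 5000 strongest peaks of each list, which leaves fewer peaks; at a TSS it stayed at 2 or 3. For single genes, 52 of 170 shares of lists left their interval. CYP2E1 had 0 lists at its canonical TSS. No paired analysis was possible because the labels give no replicate numbers and each DAP has 1 list. An alternative without peaks that overlapped only the start of another coding or long noncoding RNA gene left 5 highly bound loci. It was added after seeing the data.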
